A study of Arabidopsis thaliana with 6 samples.

Results

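Class III peroxidases were followed at 60 Arabidopsis loci, taken as a given list of gene identifiers, of the 33602 genes counted in each library. All 60 were found in the counts. The libraries came from primary roots of 7-d-old plants of the ipt1,3,5,7 mutant. This mutant is defective in isopentenyltransferases (IPT), which start cytokinin synthesis, and it makes little of the secondary growth that cytokinin drives. In the BAP group, 3 libraries were made from mutant roots collected 4 h after transfer to 1 µM BAP (6-benzylaminopurine), a cytokinin made by synthesis. In the DMSO group, 3 libraries were made from mutant roots collected 1 h after transfer to the solvent, dimethyl sulfoxide. Both groups carried all the ipt mutations and no wild type entered the comparison. Root tips and lateral roots had been discarded, so the samples were of the older part of the primary root, although genes of the root tip still had reads. The treatment and the time since transfer changed together, and their parts in any difference cannot be told apart. The study calls the replicates biological, while the labels do not say what separated them, so the p-values measure the spread between these libraries. In such bulk samples fewer cells of a type and less RNA per cell cannot be told apart.

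Class III peroxidases are secreted haem enzymes of plants that use hydrogen peroxide to oxidise phenolic compounds. In the cell wall they join monolignols into lignin and cross-link extensins, which stiffens the wall, and in another reaction they produce reactive oxygen species, which loosen wall polymers and act as signals. Their hydrogen peroxide comes largely from superoxide made by the respiratory burst oxidases (RBOH) of the plasma membrane. In roots, family members are known from lignifying xylem vessels, from the Casparian strip and suberised wall of the endodermis, and from growing root hairs.

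The libraries held 19957748 to 20127269 counts, which makes 1 read worth 0.0497 to 0.0501 CPM (the count scaled to a library total of 1e6). All 5 type-A response regulators examined, the early response genes of cytokinin signalling, were higher in the BAP libraries, with log2 fold changes of 2.36 to 5.02, so the labels fit the treatment. Summed levels of cell type markers were 1361 to 1568 CPM in BAP and 812 to 1115 CPM in DMSO libraries for 7 suberin genes, 42.6 to 90.9 CPM in BAP and 35.0 to 40.6 CPM in DMSO for 5 genes of green tissue, and 19.8 to 27.5 CPM in BAP and 28.8 to 33.3 CPM in DMSO for 6 root tip genes. The green tissue sum of 90.9 CPM was that of BAP library 3 alone, and BAP libraries 1 and 2 had 48.6 and 42.6 CPM. None of the 5 green tissue genes or the 6 root tip genes was at 0 in any library. The 10 xylem markers summed to 501 to 663 CPM in BAP and 447 to 586 CPM in DMSO libraries, which overlapped. The part of these differences in the peroxidase values was not tested.

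Peroxidase transcripts were abundant in these roots. The 60 loci took 0.793, 0.829 and 0.776% of all counts in BAP libraries 1, 2 and 3, against 0.985, 0.909 and 0.901% in DMSO libraries 1, 2 and 3. The share was thus lower in every BAP library (0.799 ± 0.027% in BAP and 0.931 ± 0.046% in DMSO, SD, n = 3 each, exact permutation test, two-sided, p = 0.1, the smallest p that 3 against 3 allows). After scaling by trimmed mean of M values (TMM), which sets libraries on a common level, the sums were 8243 ± 453 CPM in BAP and 9045 ± 589 CPM in DMSO (exact permutation p = 0.2), and the groups overlapped. All levels below are TMM-scaled CPM of libraries 1, 2 and 3 of a group in that order. To compare levels between genes, CPM was divided by the exon length in kilobases (RPKM). The mean over the 6 libraries was at least 10 RPKM for 38 of the 60 loci, 1 to 10 RPKM for 12 and under 1 RPKM for 10. The family was thus mostly expressed, but unequally. AT3G32980 took the largest share of the family's counts in each of the 6 libraries, 16.2 to 20.7% in BAP and 19.0 to 22.9% in DMSO, and the 5 leading loci of a library took 54.5 to 59.1% in BAP and 55.3 to 59.3% in DMSO.

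**Figure D1:**
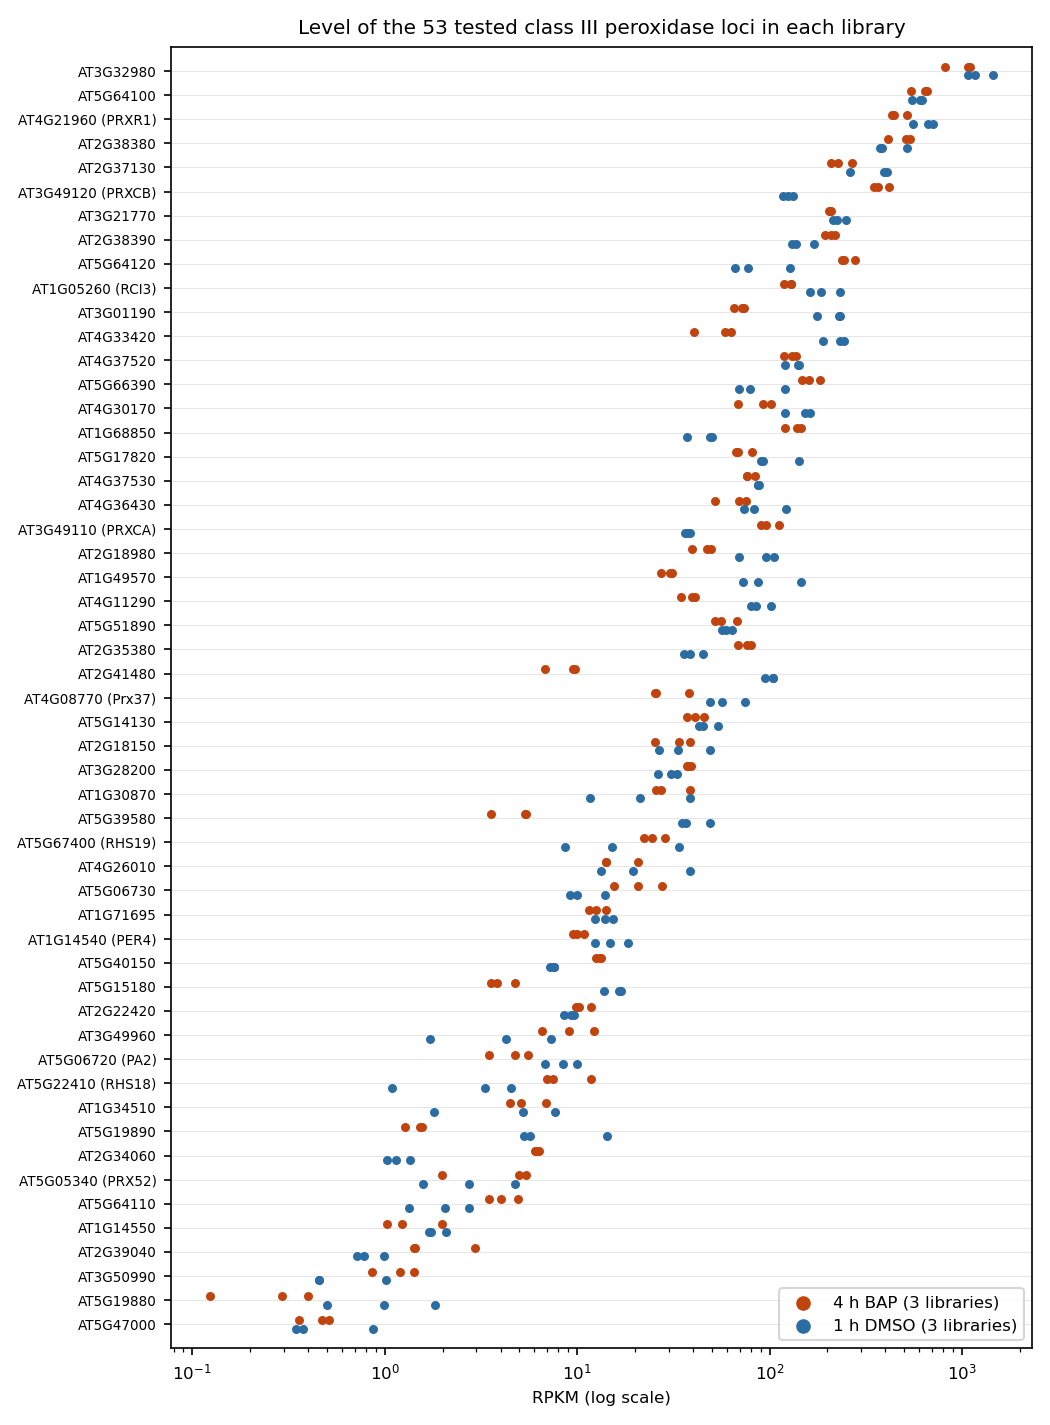
Level of the 53 peroxidase loci that entered the test, in RPKM on a log axis, with 1 point per library (orange, 4 h BAP, above blue, 1 h DMSO) and the loci ordered by their mean. The loci span from under 1 RPKM to the 1002 ± 160 RPKM (BAP) and 1229 ± 196 RPKM (DMSO) of AT3G32980, and loci whose groups are apart, such as AT2G41480 and AT3G49120 (PRXCB), lie beside loci whose groups overlap.

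The 5 most abundant loci by RPKM changed little or modestly. AT3G32980 had 1706, 1666 and 1261 CPM in BAP libraries, against 2231, 1803 and 1649 CPM in DMSO libraries. The groups overlapped and the log2 fold change of BAP over DMSO was -0.30 ± 0.16 (SE, edgeR adjusted p = 0.169). AT5G64100, which is linked to root hair growth, had 926, 949 and 777 CPM in BAP, against 891, 789 and 871 CPM in DMSO, and the groups overlapped (log2 fold change 0.06 ± 0.10). AT2G38380 had 896, 855 and 693 CPM in BAP, against 868, 641 and 629 CPM in DMSO. Its groups overlapped as well (log2 fold change 0.19 ± 0.15). PRXR1 (AT4G21960) had 813, 795 and 953 CPM in BAP, against 1019, 1300 and 1219 CPM in DMSO. Each BAP library was below each DMSO library, but the log2 fold change of -0.47 ± 0.12 was short of the 0.5 required of a call (edgeR adjusted p = 0.0149). It was -0.57 without DMSO library 1 and -0.55 without BAP library 3, which made it a call. AT2G37130 had 367, 435 and 337 CPM in BAP, against 634, 657 and 422 CPM in DMSO. It was called lower (log2 fold change -0.59 ± 0.17, edgeR adjusted p = 0.0255), although BAP library 2 was above DMSO library 3, and it lost the call without BAP library 1 (edgeR adjusted p = 0.0746), BAP library 3 (0.0893), DMSO library 1 (0.0643) or DMSO library 2 (0.0706).

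A gene was called when its edgeR adjusted p, over all genes tested, was at most 0.05 and its log2 fold change at least 0.5 in size. Of the 60 loci, 53 passed the filter on low counts and were tested. In BAP libraries 12 were called higher and 17 lower, and 24 were not called. This was 22.6% higher and 32.1% lower, where 11.6% of all 20987 genes tested were called higher and 11.4% lower. Together 29 of 53 (54.7%) were called, against 22.9% of all genes tested. The peroxidases were also more abundant than most genes, with a median over the loci of 62.9 CPM, against 16.9 CPM over all genes tested, and the percentages over all genes were not matched for level. Their median log2 fold change was -0.14, and that of all genes tested was 0.00. The 3 BAP and the 3 DMSO libraries did not overlap for 34 of the 53 (64.2%), against 51.4% of all genes tested. Changes of at least 1 on the log2 scale were called for 8 loci in the higher and 10 in the lower direction. The share of all genes called at that size was not taken, so these counts have nothing to be set against. The family therefore did not move one way, and its calls ran from -3.54 to 2.39 on the log2 scale.

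**Figure D2:**
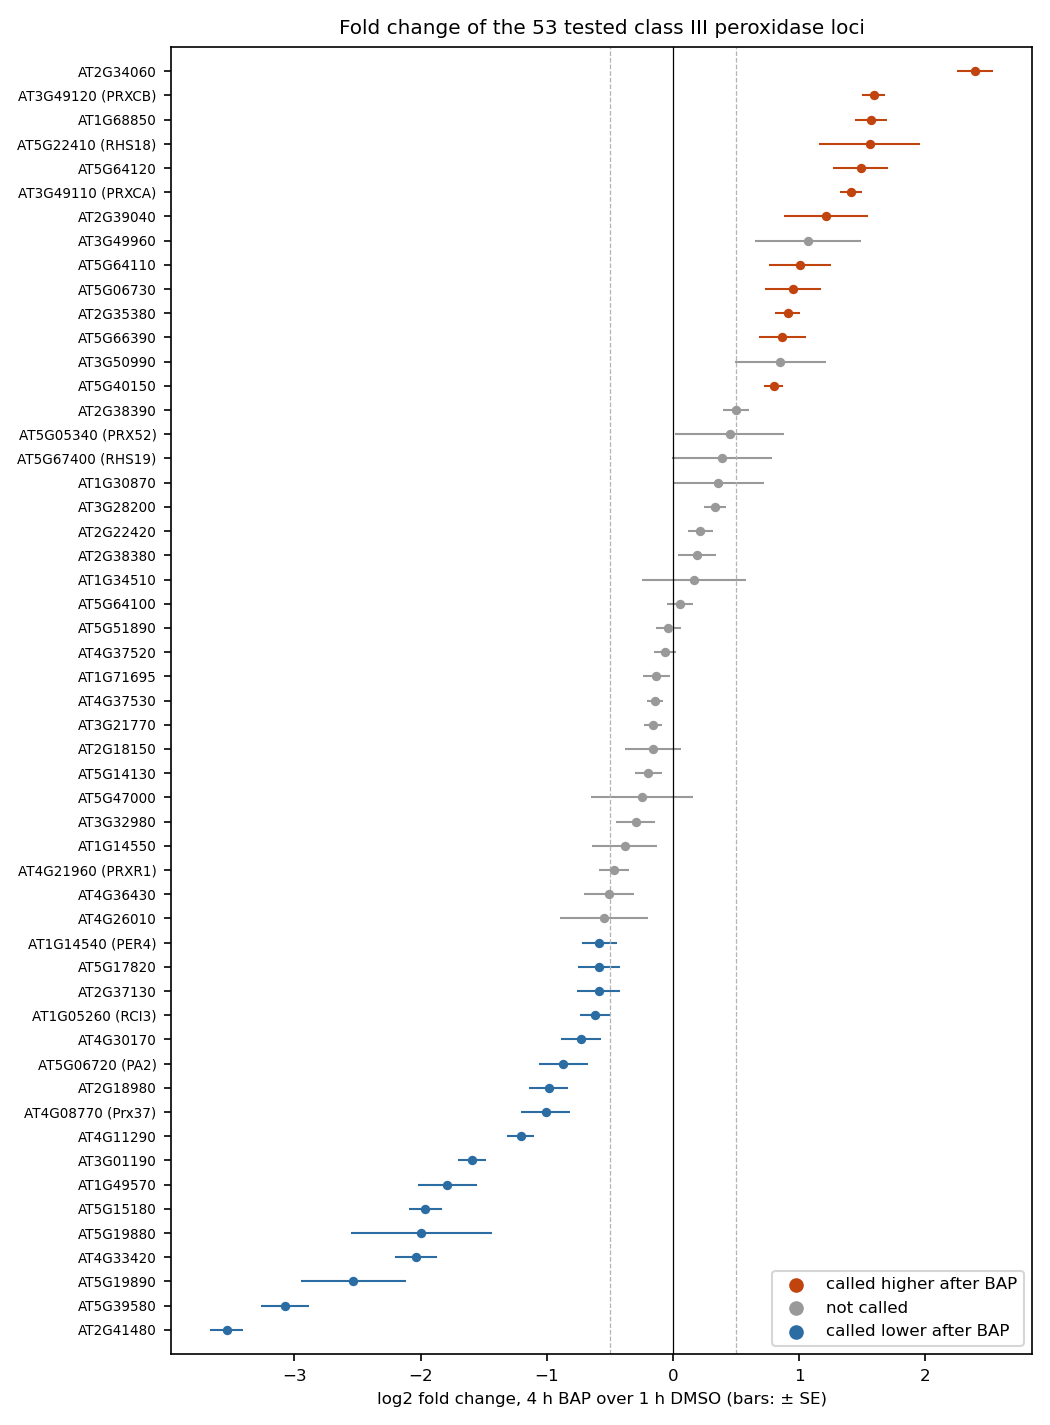
Log2 fold change of BAP over DMSO for the 53 tested peroxidase loci, with bars of ± 1 SE from edgeR, broken lines at 0.5 in size, and colour for the 12 loci called higher (orange), the 17 called lower (blue) and the 24 not called (grey). The loci range from -3.54 (AT2G41480) to 2.39 (AT2G34060), with gaps near both ends, and wide bars, as of RHS18 and AT5G19880, belong to loci whose libraries scattered.

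Among 9 loci that have been tied to lignification, the loci moved in both directions. Of the 8 tested, 3 were called lower, 2 higher and 3 were not called (median log2 fold change 0.09). AT2G41480 (PRX25, chr2:17296812-17298731), known for a part in stem lignin, showed the largest fall of the family. It had 7.55, 10.6 and 10.9 CPM in BAP libraries, against 106, 116 and 116 CPM in DMSO libraries. The groups were far apart and each was even within itself, and the log2 fold change was -3.54 ± 0.13 (edgeR adjusted p = 7.69e-07). AT4G33420 (chr4:16084828-16086296), which has been tied to vessel lignification, had 57.2, 88.4 and 82.7 CPM in BAP, against 267, 344 and 326 CPM in DMSO. Its groups lay far apart (log2 fold change -2.04 ± 0.17, edgeR adjusted p = 3.8e-05). AT5G51890, the other locus tied to vessels, had 65.5, 84.3 and 70.0 CPM in BAP, against 80.3, 71.1 and 74.2 CPM in DMSO, and its groups overlapped (log2 fold change -0.04 ± 0.10). PER4 (AT1G14540) had 12.7, 13.7 and 12.1 CPM in BAP, against 15.7, 23.2 and 18.8 CPM in DMSO. This small fall of 0.58 ± 0.14 on the log2 scale (edgeR adjusted p = 0.0112) shrank to -0.44 without DMSO library 2, short of a call.

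The lignification loci that were higher were AT5G64120 (PRX71) and AT5G66390 (PRX72). AT5G64120 (chr5:25659306-25661002), which restricts cell expansion, had 329, 321 and 374 CPM in BAP libraries, against 104, 88.7 and 172 CPM in DMSO libraries. The lowest BAP library was well above the highest DMSO library, DMSO 3 (log2 fold change 1.49 ± 0.22, edgeR adjusted p = 0.000956). AT5G66390 had 231, 262 and 212 CPM in BAP, against 173, 99.5 and 114 CPM in DMSO. The groups did not overlap, with DMSO library 1 nearest to BAP (log2 fold change 0.87 ± 0.19, edgeR adjusted p = 0.00705). PRX52 (AT5G05340), needed for syringyl lignin in stem fibres, was scarce, with 2.59, 6.48 and 7.08 CPM in BAP, against 3.56, 2.07 and 6.19 CPM in DMSO, and its groups overlapped (log2 fold change 0.45 ± 0.43). AT2G22420, linked to lignified tissue, had 14.1, 13.6 and 16.2 CPM in BAP, against 11.8, 12.8 and 13.3 CPM in DMSO. Its libraries did not overlap, but the test was not passed (log2 fold change 0.22 ± 0.10, edgeR adjusted p = 0.121).

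The 3 loci known from the endodermis, the barrier layer around the vascular cylinder, all changed, and not in 1 direction. AT5G66390, also tied to lignin above, was higher, as given above. RCI3 (AT1G05260, RARE COLD INDUCIBLE GENE 3) had 161, 163 and 150 CPM in BAP libraries, against 290, 232 and 204 CPM in DMSO libraries. All BAP libraries were lower (log2 fold change -0.61 ± 0.12, edgeR adjusted p = 0.00448), though without DMSO library 1 the value was -0.48 and no call. AT4G11290 had 46.3, 53 and 55.2 CPM in BAP, against 136, 114 and 107 CPM in DMSO, with no overlap (log2 fold change -1.20 ± 0.11, edgeR adjusted p = 5.69e-05). AT4G11290 is also one of the peroxidase genes that UPBEAT1 (UPB1), a bHLH factor of the root elongation zone, is known to repress, and AT5G17820 is another. AT5G17820 had 95.4, 115 and 98.0 CPM in BAP, against 202, 128 and 132 CPM in DMSO, and was called lower by a small margin (log2 fold change -0.59 ± 0.17, edgeR adjusted p = 0.0258). The call was lost without DMSO library 1 (log2 fold change -0.35), without BAP library 1 (edgeR adjusted p = 0.081) and without BAP library 3 (edgeR adjusted p = 0.0805). UPB1 itself had 4.76, 7.57 and 10.6 CPM in BAP, against 10.9, 17.5 and 12 CPM in DMSO, and was called lower (log2 fold change -0.82 ± 0.28, edgeR adjusted p = 0.0457).

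PRXCA and PRXCB, the neighbouring genes whose products generate hydrogen peroxide in the oxidative burst of the immune response, rose together. PRXCB (AT3G49120, PRX34) had 530, 633 and 559 CPM in BAP libraries, against 202, 180 and 189 CPM in DMSO libraries. PRXCA (AT3G49110, PRX33) had 142, 175 and 150 CPM in BAP, against 60.4, 58.5 and 56.6 CPM in DMSO. In both, every BAP library had more than 2 times the level of any DMSO library. The log2 fold changes were 1.59 ± 0.09 for PRXCB and 1.41 ± 0.09 for PRXCA (edgeR adjusted p = 6.03e-06 and 8.98e-06). Their coding sequences are 90.7% identical, and AT3G32980, the family's most abundant locus, is 84.4% identical to PRXCB. The first 90 bases of the second coding exon are shown (TAIR10.1, coding strand, 5′ to 3′) because they let reads of these 3 loci be told apart. Capitals mark bases that differ from PRXCB, 9 in PRXCA and 12 in AT3G32980.
PRXCB (chr3:18208803-18208892, plus strand): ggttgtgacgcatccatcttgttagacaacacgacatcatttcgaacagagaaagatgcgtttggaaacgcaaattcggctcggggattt
PRXCA (chr3:18201507-18201596, plus strand): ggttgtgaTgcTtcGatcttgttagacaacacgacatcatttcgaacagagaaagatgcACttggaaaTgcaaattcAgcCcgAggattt
AT3G32980 (chr3:13527718-13527807, minus strand): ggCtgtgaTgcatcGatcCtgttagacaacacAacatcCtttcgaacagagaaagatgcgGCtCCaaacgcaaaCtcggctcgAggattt
Over all exons, 7.47% of the stretches of 50 bases in PRXCB also occur in PRXCA, and AT3G32980 shares no such stretch with another gene. A read within the common stretches cannot be placed by its sequence.

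Of the 6 loci known from root hair growth, 5 were tested, of which 1 was called higher, 1 lower and 3 were not called. AT5G39580, one of a set of peroxidases that root hair elongation needs, fell strongly, with 4.6, 6.95 and 7.03 CPM in BAP libraries, against 63.8, 45.2 and 47.7 CPM in DMSO libraries. This was the second largest fall in the family (log2 fold change -3.07 ± 0.19, edgeR adjusted p = 8.16e-06). RHS18 (AT5G22410, ROOT HAIR SPECIFIC 18) had 8.95, 15.1 and 9.57 CPM in BAP, against 5.79, 1.40 and 4.22 CPM in DMSO. The groups did not overlap (log2 fold change 1.56 ± 0.40, edgeR adjusted p = 0.0152), but without BAP library 2 the call was lost (edgeR adjusted p = 0.0618). RHS19 (AT5G67400, ROOT HAIR SPECIFIC 19) had 31.8, 37.1 and 29.0 CPM in BAP, against 43.9, 11.3 and 19.8 CPM in DMSO. AT4G26010, also needed for hair growth, had 23.3, 34.0 and 23.3 CPM in BAP, against 63.6, 21.9 and 32.4 CPM in DMSO. In both, DMSO library 1 was the highest of the 6 and DMSO library 2 the lowest, so the groups overlapped (log2 fold changes 0.39 ± 0.40 and -0.55 ± 0.35).

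This scatter was shared. The loci AT1G30870, AT1G34510, AT3G49960, AT4G26010, RHS18 and RHS19, which were picked out after their values had been seen, were each highest in DMSO library 1 and lowest in DMSO library 2 within the DMSO group, by 2.91 to 4.25 times, and highest in BAP library 2 within the BAP group, where they spread by 1.28 to 1.86 times. The 7 root hair markers, among them the expansins EXPA7 and EXPA18 and the cell wall protein gene PRP3, summed to 150, 192 and 154 CPM in BAP libraries, against 183, 62.9 and 112 CPM in DMSO libraries. Within the DMSO group the marker sum had the same order of libraries as the peroxidases, and so had each marker except RHD6, with 12.1, 10.02 and 12.2 CPM in DMSO libraries 1, 2 and 3. This order was not particular to root hair genes. The summed suberin genes (1115, 812 and 884 CPM), Casparian strip genes (117, 80.5 and 81.9) and root tip genes (33.3, 28.8 and 30.9) had it with smaller spreads. The xylem (586, 581 and 447 CPM) and green tissue sums (40.2, 40.6 and 35.0) did not. AT5G19880, outside the 6, had it by 3.64 times. Of the 7 root hair markers 1 was called higher, COBL9 (log2 fold change 0.70 ± 0.24), with all 6 libraries. Without DMSO library 1, 4 of the 7 were, COBL9 (1.05 ± 0.15, edgeR adjusted p = 0.00141), EXPA18 (1.03 ± 0.26, 0.0193), LRX1 (0.79 ± 0.24, 0.036) and PRP3 (1.43 ± 0.30, 0.00866). In the same fit 3 further peroxidase loci were called higher, RHS19 (log2 fold change 1.06 ± 0.21, edgeR adjusted p = 0.00697), AT1G30870 (0.88 ± 0.26, 0.0322) and AT3G49960 (1.62 ± 0.37, 0.0129), and RHS18 kept its call at 1.98 ± 0.41. AT4G26010 was then at -0.03 ± 0.21 and AT1G34510 at 0.63 ± 0.38, neither called. AT3G50990, whose mean was under 1 RPKM, also became a call without that library, at 1.33, against 0.85 ± 0.36 with it. The 6 loci had been picked as highest in DMSO library 1 of their group, so leaving it out had to raise their values. Their calls in that fit are thus a description only. Without DMSO library 2, in which the 6 were lowest, RHS19 was at 0.02, AT1G30870 at 0.01 and AT4G26010 at -0.85, none of them called. The part of root hair number in these values was not tested.

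**Figure D3:**
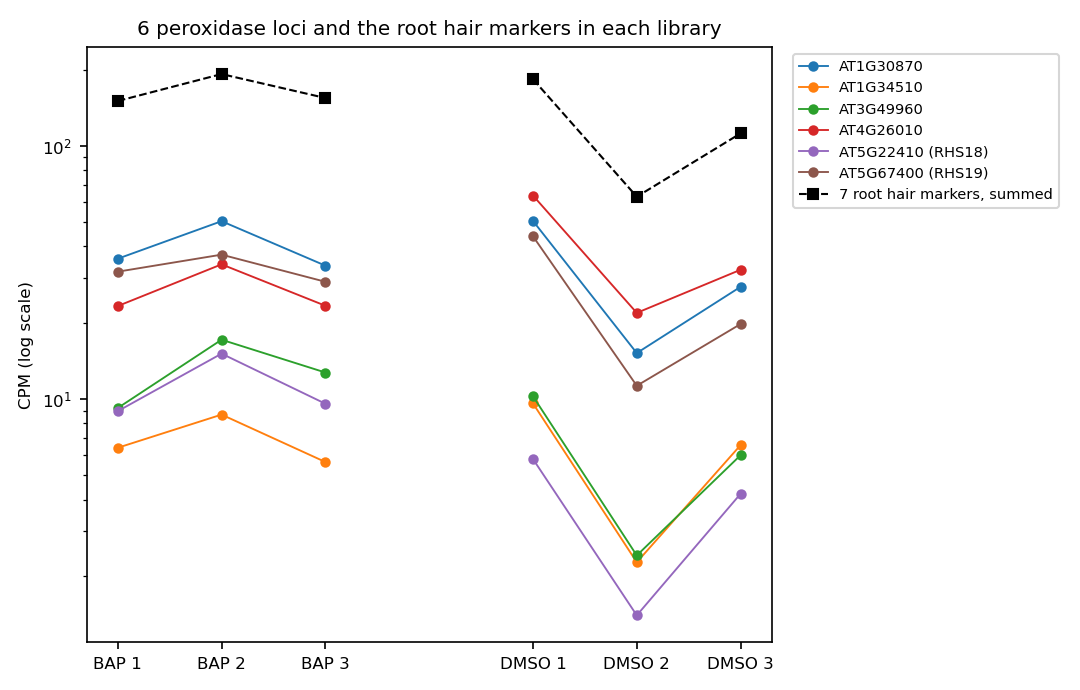
CPM on a log axis of 6 peroxidase loci (coloured, lines join the libraries of a group for 1 locus) and of the summed 7 root hair markers (black squares) in each library, BAP left and DMSO right. The 6 loci were chosen for this pattern after their values had been seen: each is highest in DMSO 1 and lowest in DMSO 2 among the DMSO libraries, as is the marker sum, which is 183 CPM in DMSO 1 and 62.9 CPM in DMSO 2.

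Promoters of root hair genes often hold a short root hair element. A looser pattern was searched for here, TG and CACG with 4 or 5 bases of any kind between them. The element itself also restricts some of these bases, so a match to the pattern need not be the element. Either spacing, on either strand, was found in the 300 bases before the annotated start in 4 of those 6 loci, in 11 of the 60 peroxidases (18.3%) and in 10.5% of 26699 protein-coding genes. The 6 had been chosen on their values, so their share is a description only. The 4 windows that hold the pattern are shown, with the matching letters in capitals, to show where the matches lie. They follow the RefSeq annotation of TAIR10.1 (coding strand, 5′ to 3′, ending next to the start).
AT1G30870 (chr1:10991178-10991477, plus strand): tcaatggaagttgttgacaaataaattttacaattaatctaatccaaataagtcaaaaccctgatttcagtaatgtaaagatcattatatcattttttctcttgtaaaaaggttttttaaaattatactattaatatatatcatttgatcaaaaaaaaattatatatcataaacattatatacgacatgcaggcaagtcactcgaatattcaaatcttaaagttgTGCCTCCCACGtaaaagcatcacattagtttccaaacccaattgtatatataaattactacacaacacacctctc
AT4G26010 (chr4:13200114-13200413, plus strand): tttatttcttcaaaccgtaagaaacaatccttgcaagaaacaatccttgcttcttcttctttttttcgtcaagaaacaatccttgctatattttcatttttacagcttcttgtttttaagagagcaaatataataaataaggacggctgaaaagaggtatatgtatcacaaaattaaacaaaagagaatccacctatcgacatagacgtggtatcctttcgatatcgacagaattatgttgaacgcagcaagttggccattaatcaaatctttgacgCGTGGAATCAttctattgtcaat
RHS18 (chr5:7426010-7426309, plus strand): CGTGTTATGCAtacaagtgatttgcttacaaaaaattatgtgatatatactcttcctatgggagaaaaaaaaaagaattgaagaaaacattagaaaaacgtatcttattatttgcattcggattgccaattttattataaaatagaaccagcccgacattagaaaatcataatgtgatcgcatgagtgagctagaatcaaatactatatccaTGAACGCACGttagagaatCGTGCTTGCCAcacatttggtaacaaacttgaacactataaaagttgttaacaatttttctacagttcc
RHS19 (chr5:26894478-26894777, plus strand): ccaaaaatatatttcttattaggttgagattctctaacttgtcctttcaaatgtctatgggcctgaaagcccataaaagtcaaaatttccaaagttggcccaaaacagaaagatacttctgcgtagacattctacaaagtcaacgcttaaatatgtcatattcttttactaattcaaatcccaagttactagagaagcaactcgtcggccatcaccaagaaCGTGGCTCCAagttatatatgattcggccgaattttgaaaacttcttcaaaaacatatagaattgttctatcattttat
The matches began 75, 23 and 79 bases before the start in AT1G30870, AT4G26010 and RHS19. RHS18 held 3 matches, which began 300, 88 and 69 bases before it. The windows of AT1G34510 and AT3G49960 did not hold these letters. The letters AGATACG, which type-B response regulators of the cytokinin pathway bind, occurred on either strand in the windows of AT5G66390, RHS18 and AT3G03670, 3 of 60 (5.00%), and in 2.1% of all. A match is no evidence of binding.

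The other 7 loci called higher have no role in the lists used here. AT2G34060 (chr2:14384896-14386669) showed the largest rise of the family. It had 8.28, 8.20 and 8.58 CPM in BAP libraries, against 1.39, 1.54 and 1.82 CPM in DMSO libraries, a log2 fold change of 2.39 ± 0.14 (edgeR adjusted p = 7.29e-06), and libraries within a group were close together. AT1G68850 had 188, 196 and 161 CPM in BAP, against 67.8, 50 and 65.8 CPM in DMSO, which made it one of the larger rises among abundant loci (log2 fold change 1.57 ± 0.13, edgeR adjusted p = 3.45e-05). AT2G35380 had 95.5, 111 and 107 CPM in BAP, against 54.0, 50.1 and 62.8 CPM in DMSO, with no overlap (log2 fold change 0.91 ± 0.10). AT5G06730 had 22.1, 29.6 and 39.5 CPM in BAP, against 13.1, 14.2 and 19.8 CPM in DMSO (log2 fold change 0.95 ± 0.22). AT5G40150 had 19.3, 20.2 and 20.6 CPM in BAP, against 11.7, 11.7 and 11.1 CPM in DMSO (log2 fold change 0.80 ± 0.08). Neither locus had overlapping groups, but 16.0% of the 50-base stretches of AT5G40150 also lie in the overlapping gene AT5G40153, and whether strand was used in counting is not known. Adjacent genes also hold 6.65% of these stretches of AT4G26010 and 6.25% of those of AT5G51890. The scarce AT5G64110 and AT2G39040 had means under 10 CPM and log2 fold changes of 1.01 ± 0.25 and 1.22 ± 0.33. AT2G39040 lost its call without DMSO library 2 (edgeR adjusted p = 0.0646) or DMSO library 3 (0.056).

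Among the 10 loci called lower that have no role in the lists, AT3G01190 was the most abundant with a change of more than 2-fold. It had 101, 97.4 and 89.2 CPM in BAP libraries, against 315, 311 and 240 CPM in DMSO libraries (log2 fold change -1.59 ± 0.11, edgeR adjusted p = 1.77e-05). AT1G49570 had 41.0, 47.1 and 45.9 CPM in BAP, against 110, 132 and 221 CPM in DMSO (log2 fold change -1.79 ± 0.23, edgeR adjusted p = 0.000488). The BAP libraries of AT1G49570 were close together, while DMSO library 3 stood above DMSO libraries 1 and 2. AT5G15180 had 4.71, 6.27 and 5.09 CPM in BAP, against 22.4, 21.9 and 18.3 CPM in DMSO (log2 fold change -1.96 ± 0.13, edgeR adjusted p = 1.31e-05). AT4G30170 had 84.3, 114 and 126 CPM in BAP, against 200, 188 and 148 CPM in DMSO (log2 fold change -0.73 ± 0.16). AT2G18980 had 47.7, 56.8 and 59.99 CPM in BAP, against 127, 83.3 and 115 CPM in DMSO (log2 fold change -0.99 ± 0.15). In none of these did the groups overlap. Prx37 (AT4G08770), whose overexpression is known to stunt growth, had 35.6, 36.0 and 53.6 CPM in BAP, against 79.0, 68.4 and 105 CPM in DMSO, again without overlap (log2 fold change -1.01 ± 0.19, edgeR adjusted p = 0.00398). Its neighbour AT4G08780, which is outside the 60, shares 6.07% of the 50-base stretches of Prx37 and was also lower (log2 fold change -0.80 ± 0.13).

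The scarce loci next to each other on chromosome 5, AT5G19890 and AT5G19880, were among the largest falls. AT5G19890 had 1.76, 2.09 and 2.14 CPM in BAP libraries, against 7.82, 7.27 and 19.7 CPM in DMSO libraries, with DMSO library 3 apart from the others (log2 fold change -2.54 ± 0.42, edgeR adjusted p = 0.00175). AT5G19880 had 0.155, 0.366 and 0.499 CPM in BAP, against 2.28, 0.626 and 1.25 CPM in DMSO. It had 3, 7 and 10 reads in BAP libraries, against 46, 13 and 26 in DMSO libraries, and met the filter only through DMSO. Its value of -1.99 ± 0.56 (edgeR adjusted p = 0.0223) is thus a description only, though counted among the 17 called lower. The call was lost without BAP library 1 (0.0725), BAP library 2 (0.0634) or DMSO library 1 (0.0584).

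Peroxidase genes often stand side by side. Among the 60, 11 pairs of neighbours lay within 10 kb of each other, and both genes were tested in 8 pairs. The ratio of the 2 neighbours was taken in each library, so that library depth dropped out. In 5 of the 8 pairs the BAP and DMSO ratios did not overlap, which gives an exact permutation p = 0.1, the smallest possible, and 0.16 after adjustment over the 8. The share over pairs of other genes was not taken, so this count is a description only. For single genes the libraries did not overlap in 51.4% of all genes tested. The most divergent pair was PA2 (AT5G06720, PRX53) and AT5G06730, which are 949 bases apart on the same strand and 85.9% identical in coding sequence. PA2 had 4.65, 6.37 and 7.48 CPM in BAP libraries, against 13.4, 9.10 and 11.3 CPM in DMSO libraries, and was called lower (log2 fold change -0.87 ± 0.20), while AT5G06730 was called higher. The log2 ratio of AT5G06730 over PA2 averaged 2.29 in BAP and 0.47 in DMSO, a difference of 1.82. In the row AT5G64100, AT5G64110 and AT5G64120, all on the minus strand, the first was not called (log2 fold change 0.06) and the others were higher (1.01 and 1.49). AT2G38390 had 289, 303 and 270 CPM in BAP, against 236, 191 and 182 CPM in DMSO. At a log2 fold change of 0.4988 it was just under the size required of a call, and its neighbour AT2G38380, 90.6% identical, was at 0.19. The pair AT4G37520 and AT4G37530, 92.4% identical, stayed together, with log2 fold changes of -0.06 and -0.14.

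**Figure D4:**
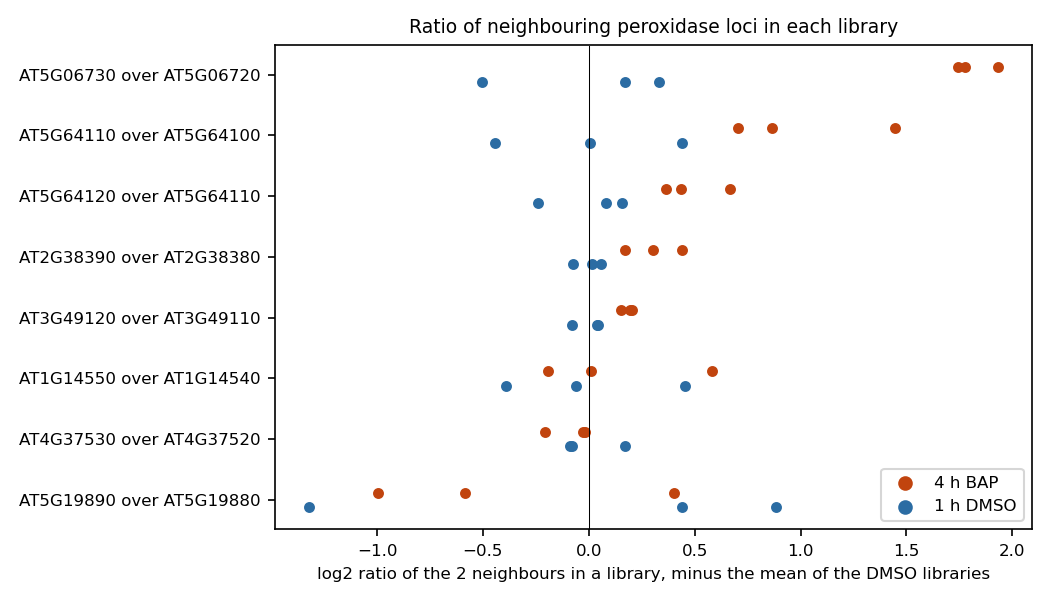
Log2 ratio of 2 neighbouring peroxidase loci in each library, less the mean of the DMSO libraries, with 1 point per library (orange, BAP, above blue, DMSO). The ratio of AT5G06730 over AT5G06720 (PA2) is higher by 1.82 in BAP, and the points of the 3 lowest pairs overlap.

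Scatter between replicates was greater in DMSO than in BAP. The highest library exceeded the lowest at least 2-fold for 3 of the 53 loci in BAP and for 13 in DMSO, with a median ratio of 1.28 in BAP and 1.39 in DMSO. Of those 13 loci, 9 were highest in DMSO library 1 and 4 in DMSO library 3, and 10 were lowest in DMSO library 2. Of the 24 loci not called, 21 had an adjusted p above 0.05 by edgeR, which does not show that they did not differ. The other 3 were PRXR1, AT2G38390 and AT3G28200, whose log2 fold change of 0.34 ± 0.09 came from 57.0, 59.97 and 58.2 CPM in BAP and 51.1, 40.6 and 47.1 CPM in DMSO.

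Of the 60 loci, 7 did not pass the filter. AT3G03670 had 0, 1 and 5 reads in BAP libraries, against 5, 19 and 28 reads in DMSO libraries. With no filter its log2 fold change was -2.97 ± 0.84 (edgeR adjusted p = 0.0234), from few reads. AT2G24800, AT4G17690 and AT5G58390 had 8, 0 and 2 reads over the BAP libraries, against 5, 4 and 1 over the DMSO libraries. No read was counted in any library for AT1G05240, AT1G05250 and AT5G58400, which allows up to 3 counts per library, or 0.149 to 0.150 CPM (counting error only). AT1G05250 (PRX2) has been linked to lignification and AT1G05240 to root hairs. The pair lies at chr1:1521137-1522681 (AT1G05240, plus strand) and chr1:1525601-1527234 (AT1G05250, minus strand), and the coding sequences, each of 978 bases, are 100% identical. The first 90 bases of their second coding exons are printed (TAIR10.1, coding strand, 5′ to 3′) to show that no read within them could be assigned to 1 of the 2.
AT1G05240 (chr1:1521504-1521593, plus strand): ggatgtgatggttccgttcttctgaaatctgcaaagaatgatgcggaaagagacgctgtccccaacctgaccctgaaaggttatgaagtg
AT1G05250 (chr1:1526778-1526867, minus strand): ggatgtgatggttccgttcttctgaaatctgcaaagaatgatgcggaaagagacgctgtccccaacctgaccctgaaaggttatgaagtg
All 1296 stretches of 50 bases in AT1G05250 also occur in AT1G05240. In the other direction 56.8% of the 2282 stretches of AT1G05240 occur in AT1G05250. The RefSeq exons of AT1G05240 hold 2478 bases and so reach beyond the span given above. How reads with several equal matches were counted is not given in the sources used here, so a count of 0 for this pair does not say that the genes were silent. RCI3, the next gene on the chromosome, is 58.7% identical to AT1G05250 and had the reads given above.

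Beyond the 60 loci, 8 of 13 further class III peroxidase loci were tested, with 2 called higher, AT1G44970 (log2 fold change 0.71 ± 0.20) and AT2G43480 (0.52 ± 0.16), and 2 lower, AT4G08780 and AT4G16270 (-0.67 ± 0.21). PER64 (AT5G42180), which lignifies the Casparian strip, had 36.0, 47.3 and 40.8 CPM in BAP libraries, against 41.2, 29.7 and 29.0 CPM in DMSO libraries, and its groups overlapped (log2 fold change 0.31 ± 0.15, edgeR adjusted p = 0.136). Of 10 RBOH genes, 8 were tested, none was called higher and 2 were called lower. RBOHB had 22.1, 23.4 and 19.9 CPM in BAP, against 75.7, 82.2 and 66.4 CPM in DMSO, with the groups far apart (log2 fold change -1.78 ± 0.10, edgeR adjusted p = 5.43e-06). AT4G11230, of the same family, was at -1.42 ± 0.15. None of 3 laccases, the other enzymes that polymerise lignin, was called. Of 10 xylem markers, 1 was called, VND6, a NAC factor of metaxylem vessels (log2 fold change 1.97 ± 0.23). Of 7 Casparian strip genes, 2 were higher and 2 lower, and of 7 suberin genes, 5 were higher and none lower.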

How the data were processed

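RNA-Seq counts of 6 libraries were used, 3 per group, with groups taken from the labels. Each library has a deposited table of unnormalized read counts by gene. Per the labels, libraries were made with TruSeq RNA v2. Reads were trimmed by the authors, aligned by Bowtie2 and assigned to genes by HTSeq, and the submitters' processing notes also name FastQC and TAIR10. The treatment of strand and of reads with several matches is not given in the sources used here. The edgeR 4.0.16 quasi-likelihood F test (R 4.3.3, TMM, filterByExpr with minimum count 10 and total 15) was fitted to all genes with treatment as its only term. The p-values were adjusted over the 20987 genes tested by the Benjamini-Hochberg method. The SE is the size of the log2 fold change divided by the square root of F. Exon lengths, sequences and names came from RefSeq TAIR10.1, where 32835 of the 33602 identifiers matched, and all 60 peroxidases. Gene coordinates are those of the files, counted from 1. The peroxidases, gene lists and rules were chosen with earlier results of these data known. Levels per library are given for called loci with a mean of at least 10 CPM, the 5 largest changes each way, the 5 most abundant loci and loci with a listed role. The fit was tested on simulated data. Alternatives were DESeq2 1.42.0, RLE and upper-quartile scaling, other filters and thresholds, the replicate number as a block, summing identical loci and leaving out each library.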

Additional observations from a re-analysis of the deposited data

How the results depend on the processing

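Of the 29 called peroxidases, 22 kept their call in all 12 alternatives of tool, scaling, filter and samples, 7 lost it in at least 1, and no log2 fold change of a called locus turned its sign. With each library left out in turn, 11 to 17 loci were called higher and 14 to 17 lower, the 17 higher without DMSO library 1. The loci concerned and the libraries are named in the results above. With a minimum log2 fold change of 1, 10 loci were lower in place of 17, since the threshold is higher. The DESeq2 Wald test called 13 higher and 19 lower, among them AT4G36430 (-0.50, against -0.51 ± 0.20, not called, by edgeR), which was also called without DMSO library 2 (-0.66). AT2G38390, at 0.4988, was called higher under 6 alternatives, at 0.50 to 0.61. The replicate block gave 13 higher and 17 lower. Whether the replicate numbers pair the samples is not given by the labels. To look at this, the log2 CPM of each tested gene in a library was taken as its difference from the group mean. The correlation of these differences was 0.213, 0.0627 and 0.323 for same-numbered BAP and DMSO libraries. For differently numbered libraries it ran from -0.308 to 0.0926. By this measure BAP libraries 1 and 3 correlated best with the DMSO library of their own number, and BAP library 2 with DMSO library 1. These few correlations cannot settle the pairing. Depth limits the scarce loci, where 1 read is a large part of the value.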
